A study of Mus musculus with 6 samples.

Results

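Macrophages sorted as F4/80+ from the mammary glands of virgin female mice were compared between conditional knockout of Dll1 (KO, strain label C57/B6:cKO-Dll1, replicates 1 and 2) and wild type littermates (WT, strain label C57/B6, replicates 1 and 2). These 4 arrays were chosen by cell type, of 6 in the series; the other arrays held mammary epithelial cell fractions of a Dll1 reporter strain and were not used here. F4/80 is a surface protein of macrophages, encoded by Adgre1. Each sample was labelled with Cy5 and hybridised with a Cy3-labelled universal reference RNA pooled from 11 cell lines of the mouse, on a 2-colour Agilent array of 1 design. The labels name neither the Cre driver of the conditional allele nor the cells or exons that lose Dll1, and they give no age. They also do not say whether replicates came from separate animals, so p-values measure only the spread between these samples.

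Dll1 (Delta-like 1) is a membrane-bound ligand of the Notch pathway. It binds Notch receptors on a neighbouring cell, the receptor is cleaved by ADAM proteases and gamma-secretase, and the released intracellular domain joins Rbpj to switch on genes of the Hes and Hey families. Tissue macrophages clear cells and debris, present antigen and secrete cytokines, and in the mammary gland they lie against the ducts and are known as a source of signals, Wnt ligands among them, for epithelial stem cells. The comparison asks how the gene expression of mammary macrophages differs when Dll1 is lost in the mouse.

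Dll1 was read first. Its main probe was spotted 10 times and lies at chr17:15504623-15504682 (mm9, minus strand), and a second probe, spotted once, lies at chr17:15513726-15513785 on the same strand. The first 30 of the 60 bases of each are shown because the Dll1 value rests on them; which exon each matches was not analysed here.
Dll1, main probe: gattactatgagccagtctttccttgaact
Dll1, second probe: acactatccggaccccaattccccatttcc
The main probe gave a log2 ratio of sample over reference of 0.80 (SD over spots 0.188) and 2.25 (0.203) on the KO arrays of replicates 1 and 2, and of 0.78 (0.143) and 3.24 (0.162) on the matching WT arrays. The 2 replicates of a genotype thus lay further apart than the genotypes did, and the groups overlapped. KO minus WT was 0.021 within replicate 1 and -0.99 within replicate 2, on average -0.49 (SE 0.40, limma adjusted p 0.967). With 1 array left out and no block, the difference was -1.72 without WT replicate 1 and -1.21 without KO replicate 2, but 0.24 when KO replicate 1 was left out and 0.74 when WT replicate 2 was. The second probe read between -0.034 and 0.042 on the 4 arrays and was well above background on 2 of them. Its signals were low in both channels, 87 to 129 in Cy5 and 59 to 71 in Cy3, so its ratios near 0 say little about the level of Dll1. Without knowledge of the deleted exons neither probe checks the genotype labels.

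The replicate number was kept as a block in the fit, because it marks the slide row. All 4 arrays lay on 1 slide and came from 1 scan, replicate 1 of both genotypes in its first row and replicate 2 in its second, while the WT arrays filled one slide column and the KO arrays the next, so slide column and genotype cannot be told apart. Across the 34575 probes tested, KO replicate 2 and WT replicate 2 had log2 ratios at least 2-fold apart for 284 probes (0.821%), against 8561 (24.8%) for KO replicate 1 and WT replicate 1. The count was 10705 between the WT replicates, 4744 between the KO replicates, 10358 for KO replicate 2 and WT replicate 1, and 5057 for KO replicate 1 and WT replicate 2. The largest counts thus all involved WT replicate 1. KO replicate 1 correlated with WT replicate 1 at 0.68, with KO replicate 2 at 0.72 and with WT replicate 2 at 0.71. Replicate 2 was the closer pair, so both within-replicate differences are given for each gene. In WT replicate 1 the unprocessed Cy5 signal of abundant genes was weak: ribosomal protein genes had a median of 12554 there, against 32596 to 50640 on the other 3 arrays, and macrophage identity genes 549 against 3942 to 5869. The median Cy5 signal of all spots was 128.5 there and 98 to 155.5 elsewhere, over a median background of 64 to 68. The reference RNA is the same on each array, so the Cy3 signal of each spot was compared between arrays. This signal was under 0.5 of the median of the other arrays for 3427 of 34543 spots in KO replicate 1 (9.92%) and 2176 of 34598 in KO replicate 2 (6.29%), but only 133 and 36 spots in WT replicates 1 and 2. A low Cy3 signal does not by itself show a missing spot. Of 23 macrophage identity genes, 6 were dim in WT replicate 1, where their Cy5 signal was weak too. At Apoe, Cy3 was 513 there against 1345 to 1620 elsewhere, and Cy5 4186 against 42994 to 49466. The reason was not tested. Spots under 0.1 of that median, called blank here, numbered 863 and 361 in the KO arrays and 5 and 1 in the WT arrays. Dim spots thus went with genotype, and each gene named with one is marked as such; their part in the results was not tested beyond leaving them out.

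**Figure D1:**
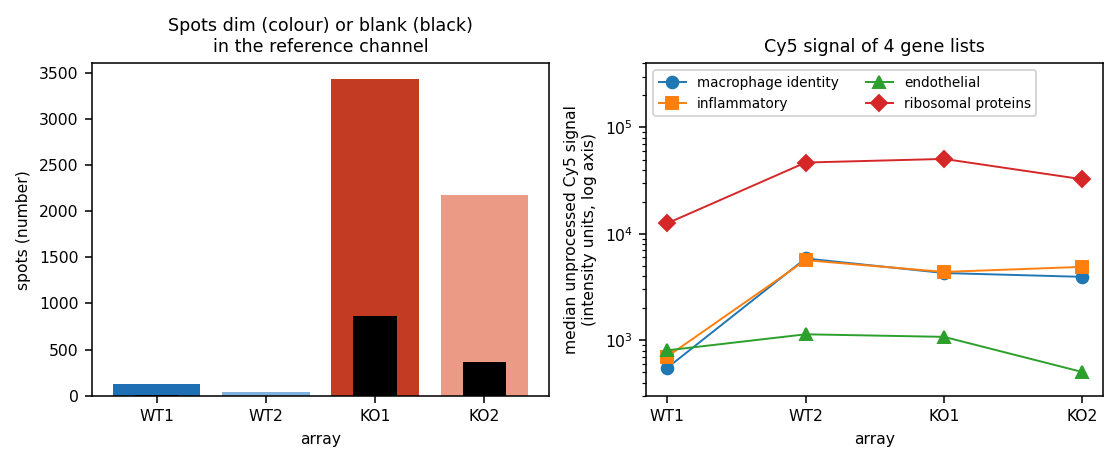
Left, number of spots per array (WT replicates in blue, KO replicates in red) whose Cy3 reference signal was under 0.5 (coloured bar) or under 0.1 (black bar) of the median of the other arrays; right, median unprocessed Cy5 signal (log axis) of 4 gene lists on each array. Dim spots lie almost all on the KO arrays (3427 and 2176), and WT replicate 1 has the weakest Cy5 signal for macrophage, inflammatory and ribosomal protein genes.

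No gene passed the test between KO and WT macrophages. With limma and the replicate number as a block, 0 of 34575 probes (0%) had an adjusted p under 0.05, the smallest adjusted p was 0.967, and 192 (0.555%) had an unadjusted p under 0.05. Without the block limma also called 0, with 49 below that unadjusted p, and limma with a robust fit and a trend called 0, with 806. The fit has 1 residual degree of freedom, so what follows gives values on every array and their direction within each replicate number, and none of it is a called change. The direction of KO minus WT was the same within both replicate numbers for 48.8% of probes. At least 2-fold in one direction within both were 8 probes higher in KO (0.0231%) and 29 lower (0.0839%), while 46 were 2-fold apart in opposite directions. The split depended on the scaling: median centring in place of loess gave 89 higher and 4 lower, and the processed signals of the scanner software 253 and 320. Median centring moved the median KO minus WT of all probes from -0.071 to 0.39, and within replicate 1 from -0.12 to 0.76, so a value under it is read against that shift.

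**Figure D2:**
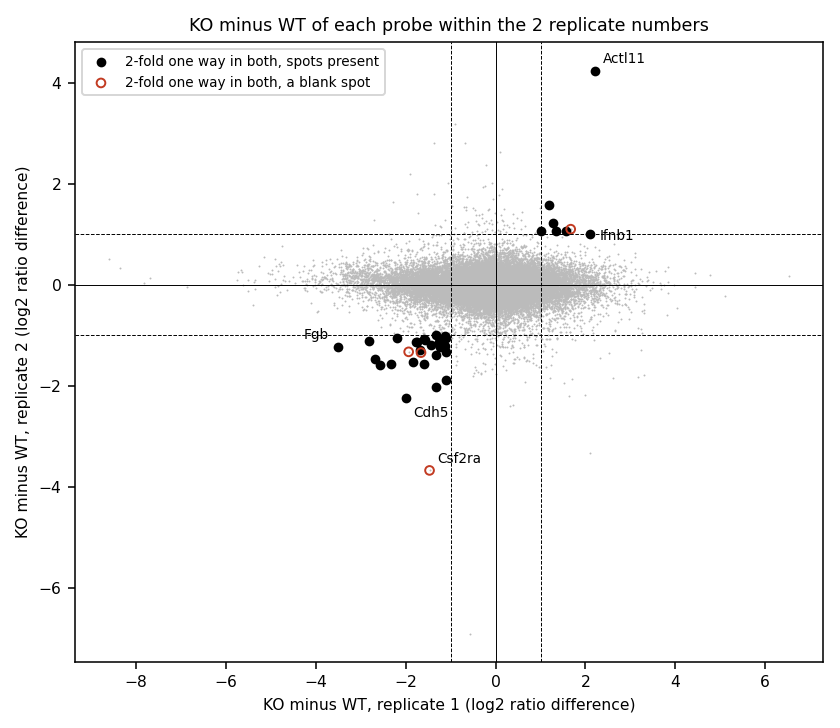
KO minus WT of the log2 ratio for each of the 34575 probes tested, within replicate 1 (horizontal axis) against replicate 2 (vertical axis), with dashed lines at 2-fold; black points are probes at least 2-fold one way in both, and red circles are such probes with a blank spot. The cloud is wide along replicate 1 and narrow along replicate 2, and Cdh5 (-2.00 and -2.24) and Actl11 (2.21 and 4.24) lie far out on the lower and higher side.

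Endothelial genes read lower in KO. Of the 19 measured endothelial markers, 17 were lower within both replicate numbers, against 30.1% of all genes (each by its brightest probe), and 0 were higher within both. In 11 of 19 both KO arrays lay below both WT arrays (13.4% of all genes). The list median of KO minus WT was -1.09 within replicate 1 and -0.69 within replicate 2, against -0.15 and -0.013 for all genes. With the processed signals 13 of 19 were lower within both (25.8% of all genes) and 3 higher (23.3% of all genes), with medians of -0.93 and -0.17. Under median centring, where 78.0% of all probes were higher in KO on average, 5 of 19 were lower within both and 1 higher. The replicate 1 median then turned to 0.43, below that of all probes, and replicate 2 gave -0.71. With 1 array left out and no block the list median was between -1.12 and -0.41. Among the 16 members with no dim spot 14 were lower within both. Erg was not tested because its probe was not above background on 2 arrays.

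Cdh5 encodes VE-cadherin, which joins endothelial cells to each other. Among all list members its unadjusted p was the smallest. Its probe at chr8:106668159-106668218 (mm9, plus strand) begins with these bases, shown because the gene leads the list.
Cdh5: acttattataagactctagttctcacagac
Cdh5 read 3.96 and 4.42 on the KO arrays of replicates 1 and 2 and 5.96 and 6.66 on the matching WT arrays; values are given in this order throughout. Both KO arrays lay below both WT arrays, by -2.00 within replicate 1 and -2.24 within replicate 2 (mean -2.12, SE 0.33, limma p 0.00205, adjusted p 0.967). The Cy3 signal of the reference was only 42 to 73 at this probe, lowest and dim in KO replicate 2, and the processed signals of the scanner software gave -1.80 and 0.69, the opposite sign within replicate 2. In the Cy5 channel alone the differences were -1.08 and -2.17. Ptprb, the endothelial tyrosine phosphatase that binds VE-cadherin, read 4.82 and 4.71 in KO and 5.92 and 6.04 in WT, and kept its direction in the processed signals (-0.78 and -0.32). Esam, a tight junction adhesion molecule, read 3.52 and 2.77 in KO against 4.62 and 4.66 in WT, but its spot was dim in KO replicate 2 and the processed signals turned that replicate to 0.82. Nos3, the endothelial nitric oxide synthase, read 0.81 and 1.54 in KO and 2.68 and 2.37 in WT, with -1.58 and -0.67 in the processed signals. For these 4 genes no KO array reached a WT array.

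The transcription factors Sox17 (-1.88 and -0.83 within replicates 1 and 2) and Sox18 (-0.41 and -1.12), which specify arterial and lymphatic endothelium, went the same way. So did the secreted vessel factor Egfl7 (-1.55 and -0.65), the fenestral diaphragm protein Plvap (-1.09 and -0.69), the tight junction protein Cldn5 (-0.81 and -0.57) and the guidance receptor Robo4 (-1.22 and -0.36). The VEGF receptors Kdr and Flt1 were -1.52 and -1.26 in replicate 1 but only -0.19 and -0.11 in replicate 2 (other Flt1 probes averaged -0.59 to 0.52), and Vwf, von Willebrand factor, was -0.48 and -0.04 (dim in KO replicate 1). The 2 members not lower within both were the angiopoietin receptor Tek (0.48 and -0.81) and the sialomucin Emcn (0.057 and -0.87). Pecam1 (-0.53 and -0.60) had a blank spot in KO replicate 1, so its first value rests on that spot. Median levels of the list over the reference were 1.42 and 2.05 in KO and 2.68 and 2.87 in WT, so these transcripts were present in all 4 sorted samples. Fewer endothelial cells in a sorted sample and less of these RNAs per cell cannot be told apart in bulk RNA.

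**Figure D3:**
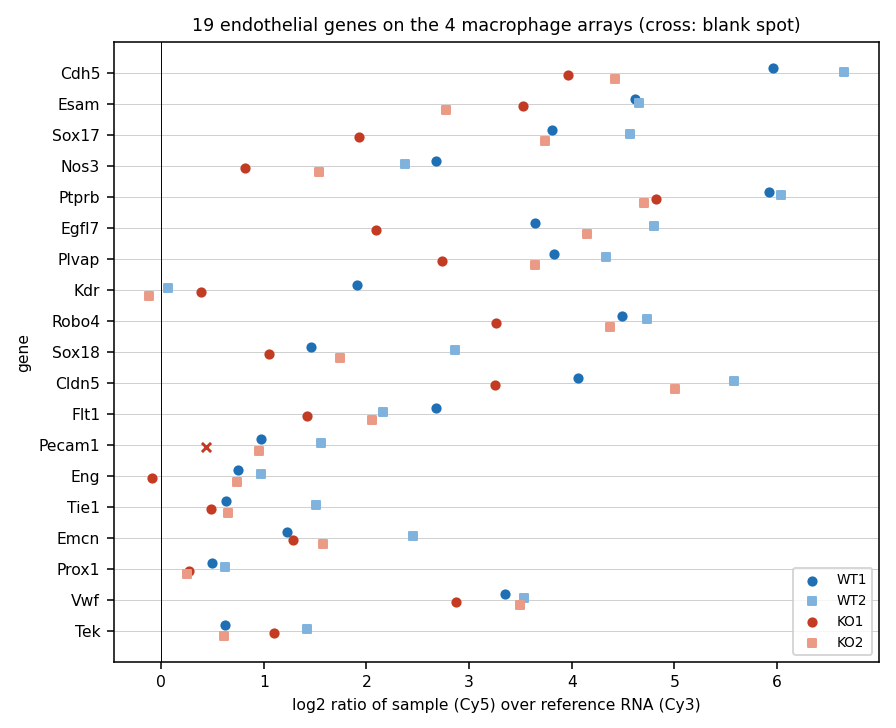
Log2 ratio of sample over reference RNA (horizontal axis) of the 19 measured endothelial genes on each array, WT in blue and KO in red, circles for replicate 1 and squares for replicate 2; a cross marks a blank spot. For Cdh5, Esam, Ptprb and Nos3 both red symbols lie left of both blue ones, as for 11 of the 19 genes.

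Outside that list, 15 genes on the lower side are named by rank. Gpr182, an atypical chemokine receptor of sinusoidal and lymphatic endothelium, read 0.45 and 3.77 in KO and 1.77 and 5.80 in WT. KO was lower within each replicate number, but KO replicate 2 lay above WT replicate 1, so the groups overlapped, and KO minus WT turned to 0.34 without WT replicate 2. Nr2f2, which sets venous identity, was -1.77 and -1.13, the junction molecule Jam3 -1.74 and -1.13, and the endothelial surface protein Ecscr -1.12 and -1.22. Jam3 turned to 0.29 without KO replicate 1. Under median centring replicate 1 turned to 0.50 (Nr2f2), 0.26 (Jam3) and 0.75 (Ecscr), where all probes had a median of 0.76. It stayed at -1.52 for Gpr182. Ptn, the heparin-binding growth factor pleiotrophin, showed no overlap between genotypes.
Ptn: gtgcaagtaccagttccaggcttggggaga
These are the first 30 bases of its probe at chr6:36691376-36691435 (mm9, minus strand). Ptn read -0.063 and 0.16 in KO and 2.50 and 1.74 in WT (KO minus WT -2.07, SE 0.40, limma adjusted p 0.967), while another probe of the gene gave -0.57. The KO arrays thus read near the level of the reference and the WT arrays above it.

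The fibrinogen beta chain Fgb read 0.53 and 1.10 in KO and 4.03 and 2.33 in WT, again without overlap, and its partner chain Fgg differed by -1.68 and -1.30, which the processed signals changed to 0.33 and -0.66. The alpha chain Fga was -0.065 and -0.067. Cfd, complement factor D (adipsin), an adipocyte product, read 0.71 and 2.76 in KO and 3.04 and 4.33 in WT; the processed signals left -1.91 in replicate 1 and 0.12 in replicate 2. Of 9 adipocyte genes 5 were lower within both (30.1% of all genes), but Adipoq (0.34 and -0.42) and Lpl (-0.30 and 0.078) had no one direction. Acacb, an acetyl-CoA carboxylase that restrains fatty acid oxidation, was -1.84 and -1.53. Cited1, a transcriptional coactivator known from the mammary epithelium, was -2.83 and -1.12, with a dim spot in KO replicate 2. The remaining named genes on the lower side were the transcription factors Tbx1 (-1.59 and -1.56) and Gata6 (-1.44 and -1.18, dim in KO replicate 2), the dynein Dnah6 (-2.68 and -1.48), the endophilin Sh3gl3 (-1.32 and -1.39) and Fibin (-1.24 and -1.23). The direction of Tbx1 turned with KO replicate 1 left out (0.015) or WT replicate 2 left out (0.0029). Under median centring replicate 1 was 0.31 (Acacb), 0.054 (Tbx1), 0.50 (Gata6), 0.67 (Sh3gl3) and 0.64 (Fibin). For all probes it was 0.76. It stayed below 0 for Fgb (-2.16), Cited1 (-0.59) and Dnah6 (-1.07).

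On the higher side, 11 of the 15 named genes had no blank spot. Cxcl10, the interferon-induced chemokine that attracts CXCR3-bearing lymphocytes, and Ms4a7, a membrane protein of resident macrophages, were each at least 2-fold higher within both replicates. The first 30 bases of their probes, at chr5:92775781-92775840 and chr19:11395903-11395962 (mm9, both on the minus strand), are given because both genes kept their direction in each setting tried, arrays left out included. Those settings reuse the same 4 arrays, and most of the named genes kept their average direction, so this is no separate support.
Cxcl10: gctttgcattgtatatggaagaacttgtgt
Ms4a7: agcagagtacagctagacttgcctgaaatc
Cxcl10 read 4.26 and 5.80 in KO and 2.93 and 4.73 in WT (KO minus WT 1.20, SE 0.33, limma adjusted p 0.967). Its second probe showed -0.057. Ms4a7 read 2.24 and 3.89 in KO and 0.96 and 2.68 in WT, a difference of 1.24 (SE 0.32, limma adjusted p 0.967). For both genes WT replicate 2 lay above KO replicate 1, so the genotypes overlapped and only the pairs of one replicate number showed the difference.

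The chemokines Ccl4 and Ccl3, which attract monocytes and T cells, also read higher within each replicate number. Ccl4 read 4.91 and 6.96 in KO and 3.95 and 5.82 in WT. Ccl3 read 2.74 and 3.82 against 1.83 and 2.99, and in both genes WT replicate 2 lay above KO replicate 1. Tlr2, the receptor for bacterial lipoproteins, read 3.26 and 4.17 in KO and 2.11 and 3.22 in WT, so both KO arrays lay above both WT arrays. Slfn8 did so too (1.49 and 1.80 against 0.69 and 0.86), as did Cd72 (2.23 and 3.02 against 0.35 and 2.21), a lectin-like receptor of B cells and macrophages whose second probe gave 1.31.

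Ifnb1, interferon beta, read 3.12 and 6.31 in KO and 1.03 and 5.31 in WT. It differed more between the replicates of a genotype than between genotypes, and KO minus WT turned to -0.047 with KO replicate 2 left out, or -0.59 with WT replicate 1 left out. Actl11, an actin-like gene known from the testis, showed the largest average of the 8 probes 2-fold higher within both replicates, 2.52 and 4.42 in KO against 0.31 and 0.18 in WT (KO minus WT 3.22, SE 0.58, limma adjusted p 0.967). Both KO arrays lay above both WT arrays, with Cy5 signals of 1569.5 and 1072 against 138.5 and 105.5.

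**Figure D4:**
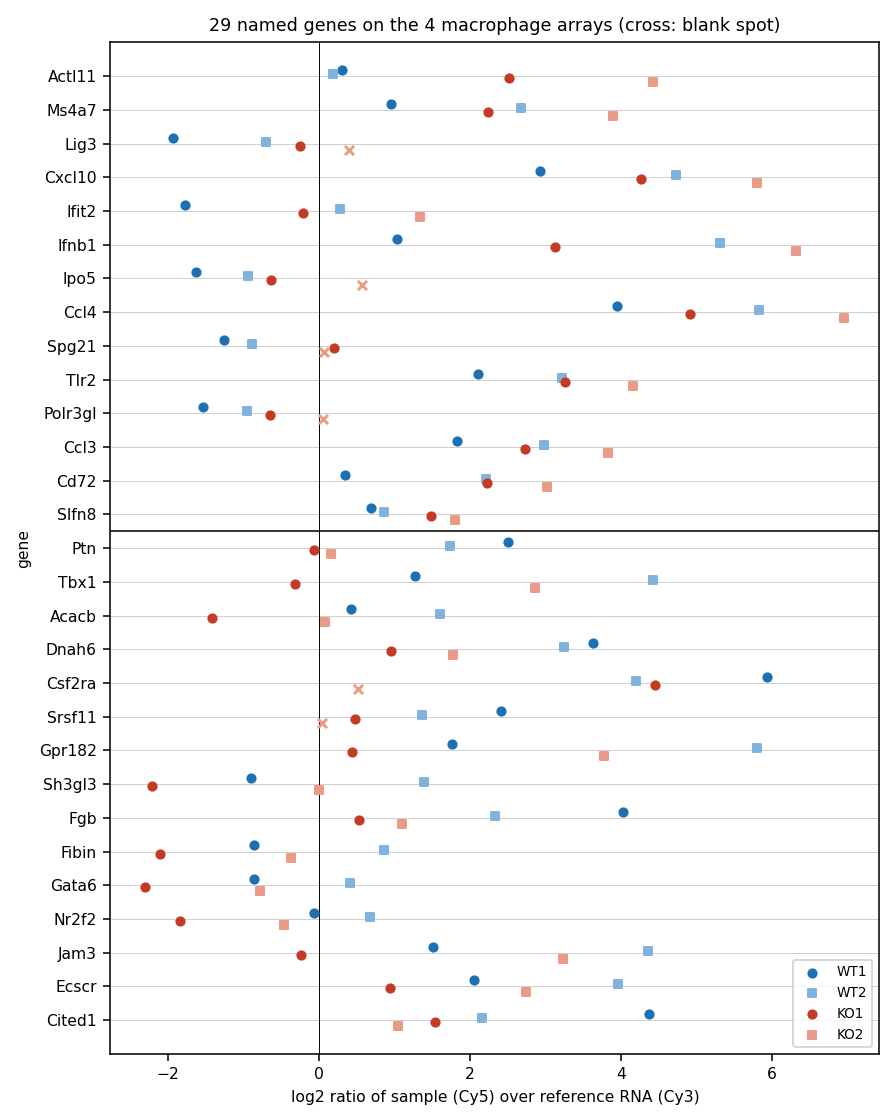
Log2 ratio of sample over reference RNA (horizontal axis) of 29 of the 30 named genes on each array, WT in blue and KO in red, circles for replicate 1 and squares for replicate 2, genes higher in KO above the line and lower below it; a cross marks a blank spot. Within each shape red lies right of blue above the line and left of it below, and the circles and squares of one genotype are often further apart than the genotypes.

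Some large values rested on blank spots. Csf2ra, the GM-CSF receptor alpha chain, would read 4.46 and 0.52 in KO and 5.93 and 4.20 in WT, but in KO replicate 2 its spot was blank, with a Cy5 signal of 73.5 and a Cy3 signal of 19.5 against Cy3 signals of 375 to 1700 elsewhere. Lig3, DNA ligase III, was the opposite case: its blank spot in KO replicate 2 had a Cy3 signal of 19 against 1007 to 1059, its Cy5 signal was 68, and the ratio read 0.39, above both WT arrays. The start of both probes is given to identify these spots, at chr19:61300336-61300395 (minus strand) and chr11:82617710-82617769 (plus strand) on mm9.
Csf2ra: tcataaaatccaacgtgccttcatgatcaa
Lig3: cctgagatgttaactggaatgggttccaac
Among the named genes, Ipo5, Spg21 and Polr3gl on the higher side and Srsf11 on the lower side also rested on a blank spot in KO replicate 2; the 4 on the higher side, Lig3 included, turned sign in the Cy5 channel alone. Of the 37 probes 2-fold one way within both replicates, 7 higher and 20 lower were left once dim spots were taken out. Among list members, the macrophage lectin Clec10a (-6.91 within replicate 2) and the lysosomal glycoprotein Cd68 (-0.44, on average 0.92 at another probe) were blank in KO replicate 2, and the hyaluronan receptor Lyve1 (-2.64 within replicate 1), the adaptor Tyrobp (-2.81), Mx1 (-2.35) and Wnt5a (-2.57) were blank in KO replicate 1; Clec10a, Lyve1 and Csf2ra were also dim in WT replicate 1. These values are set aside below, though their genes stay in the counts unless dim spots are said to be left out.

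Macrophage identity genes, which check the sort, were well above the reference on every array, with median log2 ratios of 3.17 and 4.03 in KO and 2.03 and 4.02 in WT. WT replicate 1 was the lowest of the 4 arrays for 15 of 23 members. Adgre1, the gene of F4/80, read 4.15 and 4.56 in KO and 1.85 and 3.99 in WT. Csf1r, the receptor on which macrophages depend for survival, read 4.31 and 4.31 against 2.80 and 4.02. In both genes WT replicate 1 stood below the other 3 arrays, and both KO arrays lay above both WT arrays. The other tested probe of Adgre1 gave a KO minus WT of 1.05, while the 2 other probes of Csf1r gave -1.51 and 1.31 against 0.90 for the one printed, so the probes of Csf1r disagreed in direction.

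Of 23 macrophage identity genes, 12 were higher in KO within both replicates (18.8% of all genes) and 2 were lower, Lyve1 and Cd68, both with a blank spot. Among the 14 members with no dim spot these counts were 8 and 0. The median KO minus WT was 0.43 within replicate 1 and 0.35 within replicate 2, and stayed above 0 within both with processed signals and the Cy5 channel alone. Median centring gave 2.22 and 0.37. That scaling raised replicate 1 broadly, to 2.54 for ribosomal protein genes and 0.76 for all probes, so it does not set this list apart. The average list median was -0.15 without WT replicate 1, however, and 0.059 without KO replicate 2, against 0.98 when KO replicate 1 was left out and 1.06 when WT replicate 2 was. In 5 genes both KO arrays lay above both WT arrays (6.73% of all genes). The efferocytosis receptor Mertk differed by 0.50 and 0.49, the high-affinity IgG receptor Fcgr1 by 0.32 and 0.69, and the complement genes C1qa, C1qb and C1qc by 2.76, 0.32 and 0.43 within replicate 1 and by 0.37, 0.83 and 0.38 within replicate 2 (C1qa and C1qc dim in WT replicate 1). The mannose receptor Mrc1 was 1.64 and 0.38. Lyz2, lysozyme, was 3.85 within replicate 1 and -0.16 within replicate 2, and the resident macrophage gene Timd4 1.70 and -1.08. Of 9 monocyte genes 4 were higher within both and 0 lower (18.8% and 30.1% of all genes), with a list median of -0.0054 without WT replicate 1. Among the 4 were Ccr2 (1.45 and 0.19), the receptor by which monocytes leave the marrow, and Plac8 (0.95 and 0.52).

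Inflammatory genes were higher in KO within both replicates for 11 of 22 and lower for 2 (18.8% and 30.1% of all genes). Their median was 0.79 within replicate 1 and 0.26 within replicate 2. The processed signals gave 16 higher and 2 lower (23.3% and 25.8% of all genes). Apart from Cxcl10, Ccl4 and Ccl3, Tnf, tumour necrosis factor, read 2.80 and 3.70 in KO and 0.60 and 2.95 in WT. Ptgs2, cyclooxygenase 2, was 1.89 and 0.37, Tnfaip3, an inhibitor of NF-kappaB, 2.44 and 0.31, and the monocyte chemokine Ccl2 0.39 and 0.67. Not all members went this way: Il1b, interleukin 1 beta, was -0.18 and 0.14, Il6 0.67 and -0.05, Nos2 0.17 and -0.20, and Nlrp3 -1.10 and -0.11. WT replicate 1 was the lowest array for 15 of the 22, and without it the median was -0.0048.

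Fc receptors and their adaptors, through which antibody-coated targets are taken up, were higher within both replicates for 7 of 9 (18.8% of all genes), with medians of 0.77 and 0.45. WT replicate 1 was the lowest array for 8 of 9, and without it the list median moved from 0.51 to 0.17. The inhibitory receptor Lilr4b read 1.81 and 1.23 in KO and -0.92 and 0.62 in WT. Fcgr2b differed by 1.22 and 0.45, and Fcgr3 by 3.02 and 0.24. Lysosomal genes were higher within both for 13 of 19 by small amounts (18.8% of all genes), with medians of 0.15 and 0.15, and 13 of 19 in the processed signals too. These included the protease Ctsb (0.67 and 0.63) and the membrane protein Lamp2 (1.01 and 0.52), while the protease Ctsl was lower (-0.80 and -0.54, dim in KO replicate 2). In 6 lysosomal genes the KO arrays lay wholly above the WT arrays (6.73% of all genes). WT replicate 1 was the lowest array for 11 of 19, and the list median of 0.18 was 0.033 without WT replicate 1 and 0.0082 without KO replicate 2.

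Over all genes 18.8% were higher within both replicates and 30.1% lower, the shares for each such count in this paragraph. Toll-like receptors and their partners were higher within both replicates for 4 of 14 and lower for 0. Besides Tlr2 these were Tlr13 (0.39 and 0.35), Tlr6 (2.06 and 0.10) and Tlr1 (1.32 and 0.034). Class II antigen presentation genes were higher within both for 4 of 12 and lower for 1: H2-Aa was 2.63 within replicate 1 and 0.10 within replicate 2, while H2-Ab1, its partner chain, was -1.69 and 0.31, both genes with a dim spot in WT replicate 1. Their median within replicate 2 was 0.037, and -0.055 without dim spots. Of 13 chemokine receptors 6 were higher within both, among them Cxcr3 (0.46 and 0.26) and Cx3cr1 (0.95 and 0.22, dim in WT replicate 1), the fractalkine receptor, but WT replicate 1 was the lowest array for 10 of 13 and without it the list median was -0.22.

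Genes of alternative activation had no common direction, 5 of 17 higher and 5 lower within both (18.8% and 30.1% of all genes), with medians of 0.29 and -0.12. The chemokine Ccl17 read 2.41 and 2.98 in KO and 3.36 and 3.52 in WT, without overlap, and Il10, an anti-inflammatory cytokine, was 0.37 and 0.54. Both KO arrays lay below both WT arrays in 2 of the 17, near the share of all genes (13.4%). Scavenger and efferocytosis receptors read lower within both for 6 of 15 (30.1% of all genes), at medians of -0.35 and -0.24, although median centring turned replicate 1 to 1.49 and the processed signals left -0.014. Their average list median of -0.36 also turned, to 0.38 when KO replicate 1 was left out and 0.43 when WT replicate 2 was. The stabilins Stab1 (-0.35 and -0.45) and Stab2 (-0.83 and -0.51, dim in KO replicate 1), which take up hyaluronan and other ligands and are shared with sinusoidal endothelium, and Scarb1 (-0.68 and -0.26, on average 0.088 at another probe), the HDL receptor, were among them. In the CSF1 axis, Csf1, the growth factor of macrophages, read -1.78 and -0.83 in KO and -0.54 and 0.035 in WT by its brightest probe, and its other probes averaged -1.17 to -0.92. At the brightest probe both KO arrays lay below both WT arrays, as in 2 of the 7 CSF1 axis genes (13.4% of all genes). At another Csf1 probe KO replicate 2 (-0.36) lay above WT replicate 1 (-1.17), and median centring left an average of -0.074. Il34, the other ligand of Csf1r, was -0.97 and -0.12.

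Interferon-stimulated genes differed between the replicate numbers. Within replicate 2, 16 of 20 were higher in KO (47.3% of all genes), with a median of 0.51, and of 0.55 to 0.65 with processed signals, median centring, the Cy5 channel alone and without dim spots. Within replicate 1, 7 of 20 were higher (41.4% of all genes) and the median was -0.22, which those scalings turned to 0.028 (processed signals), 0.13 (Cy5 alone) and 1.33 (median centring). KO replicate 2 was the highest of the 4 arrays for 15 of 20 and KO replicate 1 the lowest for 13. Rsad2 (viperin) read 0.71 and 3.27 in KO and 0.93 and 2.01 in WT. Ifit1 read -0.0034 and 2.21 against -0.39 and 0.97. Higher within both replicates were Ifit2 (1.56 and 1.06), the RNA sensor Ifih1 (1.25 and 0.55), the transcription factor Irf7 (0.42 and 0.48), Ifit1 and Cmpk2 (0.83 and 0.15). Isg15 (-1.58 and 0.81) and Oas2 (-1.13 and 0.82) had opposite directions in the 2 replicates.

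Of the Notch receptors, Notch2, the one macrophages are best known to carry, read 0.41 and 1.03 in KO and -0.26 and 0.74 in WT, and was the only receptor of 4 higher within both replicates (0.68 and 0.29), though its other probe gave -0.052. Notch1 was -0.13 and 0.35 (dim in KO replicate 1), Notch3 -1.04 and -0.15, and Notch4 0.0075 and -0.54. Among the other ligands, Jag1 (-0.04 and 0.082) and Jag2 (-0.23 and 0.0046) were nearly level, Dll4 was 0.46 and -0.51, Dll3 0.56 and -0.14, and the atypical ligand Dlk1, far below the reference on every array, -2.00 and -0.46.

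Notch target genes showed no common direction. Of 10 measured, 0 were higher and 3 lower within both replicates (18.8% and 30.1% of all genes). The medians were 0.32 and -0.14 (the second 0.043 in the Cy5 channel alone). Hes1, the canonical target, read 0.04 and 0.93 in KO and -0.42 and 1.01 in WT. Hey1 read 0.84 and 0.94 against 1.13 and 1.28, so both KO arrays lay below both WT arrays by a small margin, -0.29 and -0.34. This held for 1 of the 10 (13.4% of all genes). Gata3 (-0.40 and -0.13) and Hes7 (-1.09 and -0.029) were also lower within both. Nrarp, a feedback inhibitor, was 0.79 and -0.69, Dtx1 1.49 and -0.38, Heyl 0.18 and -0.16, Hes5 -1.15 and 0.20, Il2ra 1.12 and -0.36, and Myc 0.82 and -0.022. Within replicate 2, 9 of the 10 were lower in KO and Hes5 higher (52.7% of all genes were lower), but with the processed signals 5 of 10 were lower there, and 3 were higher and 1 lower within both replicates. Hey2 and Ptcra were not above background on 2 arrays.

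The processing machinery of the pathway showed 7 of 16 higher and 4 lower within both replicates (18.8% and 30.1% of all genes), with medians of 0.46 and -0.013. Rbpj, the DNA-binding partner of Notch, was 0.84 and 0.12 (dim in KO replicate 1), and its coactivator Maml1 0.60 and 0.061. The proteases Adam10 (0.65 and -0.18) and Adam17 (1.59 and -0.28), which cleave the receptor first, had opposite signs in the 2 replicates. Of the gamma-secretase subunits, Psen2 was -0.56 and -0.024, Psenen -0.57 and -0.15, Aph1a -0.43 and -0.0028, and Ncstn 0.0059 and -0.10. The Fringe glycosyltransferases, which tune the response of Notch to its ligands, were 0.081 and 0.44 (Lfng), 0.85 and -0.18 (Mfng) and -0.29 and -0.13 (Rfng). Mib1, the ubiquitin ligase that lets Delta ligands signal, was 1.27 from a blank spot and 0.15, and Numb, which antagonises Notch, 1.96 and -0.20.

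Among the Wnt ligands, the largest differences lay in replicate 1. Wnt16 read 0.67 and -0.12 in KO and 3.93 and 0.049 in WT, so only WT replicate 1 was clearly above the reference. Wnt10a read -3.40 and -3.03 in KO and -0.48 and -2.54 in WT, and both KO arrays lay below both WT arrays (-2.92 and -0.48; SE of the mean difference 0.66, limma adjusted p 0.967). Wnt6 was -1.65 and -0.31, again without overlap, and Wnt5b -0.14 and -0.50. Both KO arrays lay below both WT arrays in 2 of the 11 ligands measured (13.4% of all genes). Wnt4 (-1.48 and 0.21), known for its part in mammary branching, and Wnt10b (-1.63 and 0.28) were lower only within replicate 1. Wnt1 (0.46 and 0.41, dim in KO replicate 2) and Wnt7a (0.013 and 0.064, dim in KO replicate 1) were higher within both, and Wnt11 (1.15 and -0.059) and Wnt9b (0.66 and -0.28) only within replicate 1. In all, 4 of 11 were lower and 2 higher within both (30.1% and 18.8% of all genes), with medians of -1.48 and -0.059. Median centring brought the first median to -0.043, and the processed signals turned the second to 0.16. WT replicate 1 was the highest array for 6 of 11, and without it the list median was 0.17. Wnt3 was among the 8 ligands not above background on 2 arrays.

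Markers of other leukocytes separated the replicates more than the genotypes. Within replicate 1 the medians of KO minus WT were 1.47 for 7 B cell genes, 1.14 for 8 NK cell genes, 2.14 for 6 mast cell genes, 1.50 for 6 eosinophil genes and 1.63 for 10 neutrophil genes; within replicate 2 they were -0.065, 0.055, -0.042, -0.22 and -0.60. Without WT replicate 1 the average list medians, in the same order, were 0.15, 0.31, 0.27, -0.22 and -0.50. All medians within replicate 1 stayed above 0 with processed signals and Cy5 alone. Under median centring they were 1.79 to 2.54, but ribosomal protein genes read 2.54 there as well. Siglecf, the eosinophil lectin, read 4.52 and 4.23 in KO and 0.073 and 4.27 in WT. The granzyme Gzma of NK cells read 4.93 and 3.77 against 1.36 and 3.49. In both genes WT replicate 1 was the array that stood apart, and the other 3 lay nearer to one another.

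Several neutrophil genes read opposite ways in the 2 replicates. Mpo, myeloperoxidase, read 3.38 and 1.87 in KO and 0.085 and 3.65 in WT. S100a8 read 3.32 and 2.01 against 0.14 and 3.84, and the antimicrobial peptide gene Camp 5.59 and 3.38 against 2.97 and 5.22. KO was higher in replicate 1 by 2.62 (Camp) to 3.29 (Mpo) and lower in replicate 2 by amounts of -1.79 to -1.84, which for these 3 genes exceeds 2-fold in a pair of arrays where 0.902% of all genes do. With the processed signals the 3 genes were -1.22, -1.74 and -1.72 within replicate 2, for Mpo, S100a8 and Camp in that order, and the list median there was -0.13. Ly6g was level (0.10 and 0.11). T cell and dendritic cell markers had medians of -0.074 and -0.046 within replicate 2. For 9 pericyte and smooth muscle genes the medians were 0.022 and 0.12, and for 4 erythroid genes -0.13 and -0.47. The part of these other cell types in the macrophage and inflammatory values was not tested.

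Stromal and proliferation genes were lower in KO within replicate 1 and level or higher within replicate 2. The medians in replicates 1 and 2 were -0.99 and -0.051 for 19 cell cycle genes, -1.09 and 0.028 for 19 hypoxia and glycolysis genes, -1.43 and 0.061 for 17 matrix genes, and -1.13 and 0.43 for 15 fibroblast genes. Under median centring all 4 medians of replicate 1 turned above 0, in the same order to 1.37, 1.29, 0.65 and 0.38. Against the 0.76 of all probes, cell cycle and hypoxia genes then lay higher, and matrix and fibroblast genes still lower. WT replicate 1 was the highest array for 16 of 19, 17 of 19, 13 of 17 and 10 of 15 genes of the 4 lists, and without it the list medians were -0.10, 0.0082, -0.0042 and 0.30. Col1a1 read -2.05 and -2.18 in KO and 0.34 and -2.76 in WT, and the glycolytic enzyme Pgk1 -2.95 and -2.85 against -0.72 and -2.82. In both genes WT replicate 1 was the array that stood apart. Cell cycle genes were lower within both replicates for 11 of 19 (30.1% of all genes), and in 8 of 19 both KO arrays lay below both WT arrays (13.4% of all genes), with small differences within replicate 2. Mcm5, a replicative helicase subunit, read -1.21 and -1.46 in KO and 0.21 and -1.17 in WT, and the mitotic kinase Aurka differed by -1.50 and -0.15. Of the hypoxia genes, Ndrg1 (-1.09 and -0.40) and the vasoactive peptide gene Adm (-0.46 and -0.54) showed no overlap. In 3 of these 19 genes both KO arrays lay below both WT arrays, near the share of all genes (13.4%). Sparc, a secreted matrix protein also made by endothelium, was lower within both replicates (-2.26 and -0.56), as were the basement membrane genes Nid1 (-1.11 and -0.50, dim in KO replicate 1) and Lamb1 (-1.77 and -0.24). Fibroblast genes within replicate 2 were higher in KO for 12 of 15 (47.3% of all genes), among them Col1a1 (0.57), Col1a2 (0.43), Dcn (0.54) and Lum (0.55), and this median stayed between 0.26 and 0.44 with processed signals, median centring and Cy5 alone.

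Epithelial markers showed no common direction. Basal genes had medians of -0.18 and 0.069 within replicates 1 and 2, and luminal genes -0.12 and 0.005; in the Cy5 channel alone replicate 1 turned to 0.06 and 0.14. The basal keratins were -0.18 and 0.069 (Krt5), 0.85 and 0.19 (Krt14) and 0.25 and 0.89 (Krt17), and Wfdc2, a secreted luminal protein, was lower within both (-1.35 and -0.89) from spots dim on both KO arrays. Ribosomal protein genes, present in every cell, had medians of -0.22 and 0.042, and genes of oxidative phosphorylation -0.22 and 0.05; in the Cy5 channel alone these replicate 1 medians were 0.12 and 0.14. The immediate early genes that respond to tissue dissociation were at medians of 0.10 and 0.11, with Fos 0.63 and 0.14 and Jun -1.50 and -0.21 (dim in KO replicate 2). In 6 of these 16 genes, Fos, Atf3, Egr2, Dusp1, Btg2 and Nr4a1, both KO arrays lay above both WT arrays (6.73% of all genes). In 2 of the 16 both KO arrays lay below both WT arrays (13.4% of all genes).

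**Figure D5:**
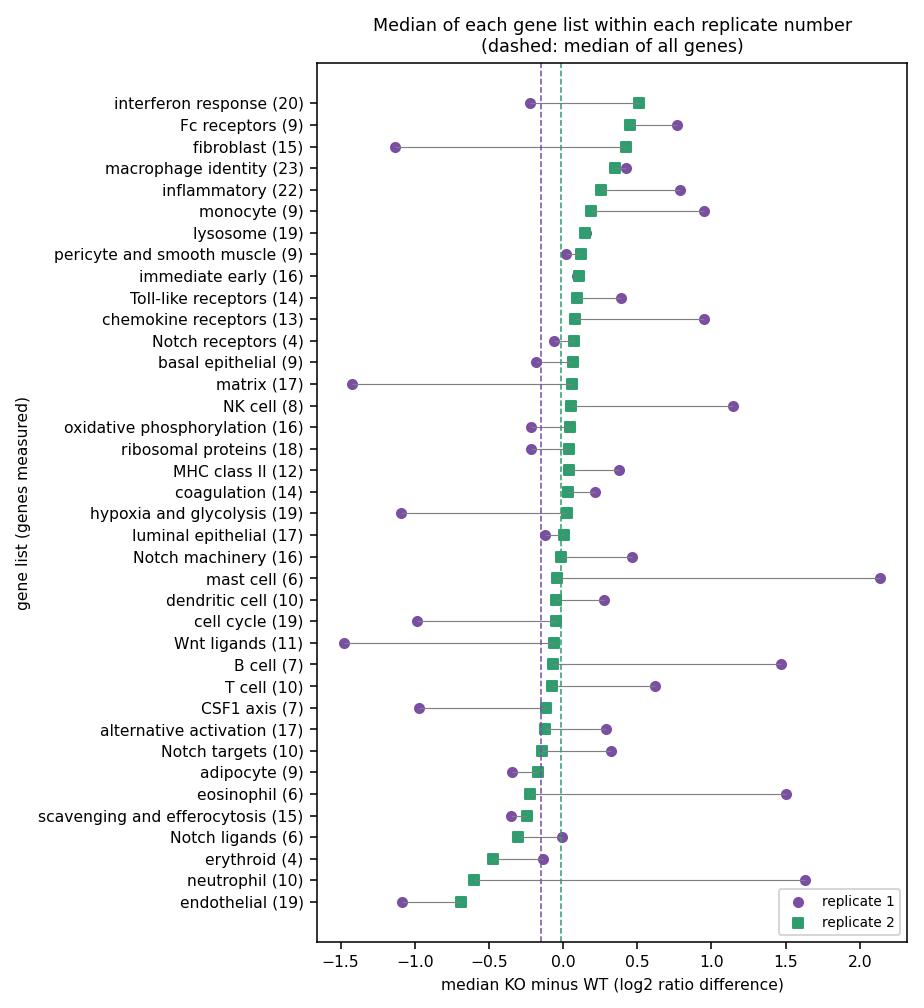
Median KO minus WT of the log2 ratio for each of the 38 gene lists within replicate 1 (circles) and replicate 2 (squares), with the number of genes measured in brackets and dashed lines at the medians of all genes (-0.15 and -0.013). The endothelial list is lowest within replicate 2 and also low within replicate 1, macrophage identity, Fc receptor and inflammatory lists lie above 0 in both, and the neutrophil and fibroblast lists lie on opposite sides in the 2 replicates.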

How the data were processed

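Per the labels, F4/80+ mammary macrophages of 2 KO and 2 WT samples were labelled with Cy5 and hybridised with Cy3-labelled reference RNA, with no dye swap. The deposited scanner files hold spot intensity values and a log10 ratio of Cy5 over Cy3, made with Feature Extraction 12.0.2.2 per the file headers (Agilent Feature Extraction 11.0 in the submitters' processing notes). The deposited value table of the series holds log2 ratios; set against the scanner's ratios it has the same direction and scale (slopes of 1.00 to 1.01), with column medians of -0.117 to 0.140.

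Median spot intensities were background-corrected by normexp (offset 50) and normalised within each array by loess in limma 3.58.1 (R 4.3.3), with control spots given no weight; outlier spots (246 to 500 per array of 62976) were left out, and spots of a probe averaged. Of 55681 probes, 392 lacked a value on an array and 20714 were well above background in Cy5 on fewer than 2 arrays, which left 34575; a gene is its brightest probe. Probes were named by accession (27509) or by the array design's gene name. limma fitted genotype and replicate number with Benjamini-Hochberg adjustment, checked on simulated data. Deviations from the genotype means correlated at 0.576 between samples of one number, which share a slide row. The median prior degrees of freedom were 3.43; the number of arrays limits the precision. 

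Named were the 15 genes per direction with the largest smaller difference of the 2 replicates, of one direction also in the processed signals, the Notch and Wnt genes, up to 4 members of each list, and defining markers; other list members, and genes named for having no overlap, were chosen after their values were seen. The members and gene lists were chosen with earlier results of these data known. Alternatives were processed signals, the deposited table, median centring, no background correction, other filters on dim probes, Cy5 alone (quantile normalised), a trended robust variance, no replicate block and 1 array left out. Leaving out spots dim in the reference (Cy3 over background under 0.5 of the median of the other arrays, where that is at least 50) was added after seeing the data. The values of some genes are not reported here. Probe positions are those of the array design (mm9).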

Additional observations from a re-analysis of the deposited data

How the results depend on the processing

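No setting called a probe with limma, and the smallest adjusted p of any was 0.223, without WT replicate 2. With the replicate number as a block 192 probes had an unadjusted p under 0.05, and with no replicate block 49; the block changed no call. That count was 1008 with the processed signals, and with 1 array left out and no block 15 to 6131 (482 without KO replicate 2, 6131 without WT replicate 2). The 8 probes at least 2-fold higher and 29 lower within both replicates became 253 and 320 with the processed signals, 274 and 324 with the deposited table, 89 and 4 with median centring and 20 and 156 in Cy5 alone, and 5 were higher where Cy5 had to be above background on every array; the cause was not tested, except that this last filter tests fewer probes. The macrophage identity median of KO minus WT (0.51) was 0.594 with the processed signals, 0.594 with the deposited table, 1.33 with median centring, 0.962 in Cy5 alone and -0.149 to 1.06 with 1 array left out (0.0592 without KO replicate 2, 0.977 without KO replicate 1). The inflammatory median was 1.27 with median centring and -0.0048 to 1.19 with 1 array left out. Ribosomal protein genes gave 1.34 with median centring. The endothelial median was -0.0542 with median centring and -1.12 to -0.411 with 1 array left out. Dll1 ranged from -1.72 to 0.745 with 1 array left out (-1.21 without KO replicate 2, 0.238 without KO replicate 1). With 1 array left out, the lone array of a genotype is assumed to vary like the other pair. Probes near background and 4 arrays limit what could be told.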

Other observations

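Around Dll1 on chromosome 17, 171 tested probes lay within 5 Mb, and 1 of them (0.585%), of the imprinted antisense transcript Airn, was at least 2-fold higher in KO within both replicates. Over all probes 0.0231% were higher in this way and 0.0839% lower, and a share resting on 1 probe says little about the region. Airn read 0.15 and 0.72 in KO and -1.04 and -0.85 in WT, while its other tested probes gave -1.23 to 0.05. This Airn probe was well above background on the KO arrays only, with Cy5 signals of 75 and 70 on the WT arrays. It passed the filter through the KO arrays alone, and its WT ratios rest on signals near background. The 37 probes at least 2-fold apart one way within both replicates lay on 17 chromosomes, at most 4 on one.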
